A study of Oryctolagus cuniculus with 12 samples.

Results

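The genes described here are the nuclear-encoded subunits of oxidative phosphorylation that the deposited rabbit cornea table lists under a subunit's symbol. Members were all entries whose symbol fits the naming pattern of complex I (NDUFA, NDUFB, NDUFC, NDUFS and NDUFV), complex II (SDHA to SDHD), complex III (UQCR and CYC1), complex IV (COX4 to COX8) or complex V (ATP5), with 1 matching name left out by the rule. The pattern found 53 of the 29076 genes listed: 30 of complex I, 4 of complex II, 1 of complex III, 3 of complex IV and 15 of complex V. NDUFA4 was counted with complex IV, where its protein is known to reside. ATP5S and ATP5SL are named like subunits of complex V but are not part of the enzyme itself. Both are included in its 15 members and in its sums, shares and counts of folds.

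The libraries were made from corneas of rabbits 6 months of age on a normal diet. There were 12 libraries in 4 groups of 3, labelled control, blue_light, GL and RL. The treatment text names 6 weeks of light for every library, the controls included. What GL and RL stand for is not written out in the labels. They give no wavelength or intensity and do not say whether the 3 libraries of a group came from separate animals, so the tests measure the spread between these libraries, which may be technical.

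Oxidative phosphorylation is the last stage of respiration, carried out in the inner mitochondrial membrane. Complex I takes electrons from NADH and complex II takes them from succinate. Both pass them to ubiquinone, complex III hands them to cytochrome c, and complex IV gives them to oxygen. The proton gradient built on the way drives complex V, the ATP synthase. The cornea draws oxygen mostly from the air through the tear film, and its endothelium spends much ATP on the ion transport that keeps the stroma clear. A few core subunits are encoded in mitochondrial DNA. Those genes matched no symbol in the table and were not analysed here.

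Total counts ran from 40.9 to 64.7 M (mega) per library. Markers of corneal epithelium and of keratocytes, the stromal cells, were high everywhere. Their summed levels were 12800 to 20800 and 15700 to 22400 FPKM (fragments per kilobase of transcript, scaled to depth, a level per length). Every GL library lay above every control in both sums. For epithelium GL had 18700 to 19900 and control 12800 to 17500 FPKM. For keratocytes GL had 20500 to 21400 and control 16400 to 19600 FPKM. Blue_light and RL overlapped with control in both sums. The part of these differences in the subunit values was not tested. Markers of other eye tissues were uneven: the lens markers summed to 857 to 18800 FPKM and the retina markers to 4.8 to 263 FPKM, highest in GL 3, blue_light 1 and control 2. The lens sums were 6660, 9470 and 5900 FPKM in control, 18800, 2440 and 2860 in blue_light, 857, 3340 and 3000 in RL and 926, 3530 and 3770 in GL, so every GL and RL library lay below every control. The libraries also fell into sets. In 5 libraries (all of blue_light, control 1 and RL 1) 2389 to 2563 genes stood at counts of 1 to 20, against 767 to 1461 in the other 7. All of blue_light lies in the first set and all of GL in the second, so the part of the set in blue_light minus GL can be estimated only through control and RL, which hold libraries of both sets.

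The subunit genes were among the most abundant transcripts of these corneas. Of the 53 members, 51 had a mean of 10 FPKM or more over the 12 libraries and 26 were above 100 FPKM. The median of those 51 stood at the 97.1 percentile of the 21448 genes with any count. ATP5E, the epsilon subunit of the catalytic head of the synthase, had the highest mean level at 507 FPKM. COX4I1, the common isoform of complex IV subunit 4, followed at 391 FPKM and ATP5O, in the stalk of the synthase, at 308 FPKM. At the other end NDUFA13 and ATP5I averaged 0.907 and 0.836 FPKM, and both entries are taken up further on.

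**Figure D1:**
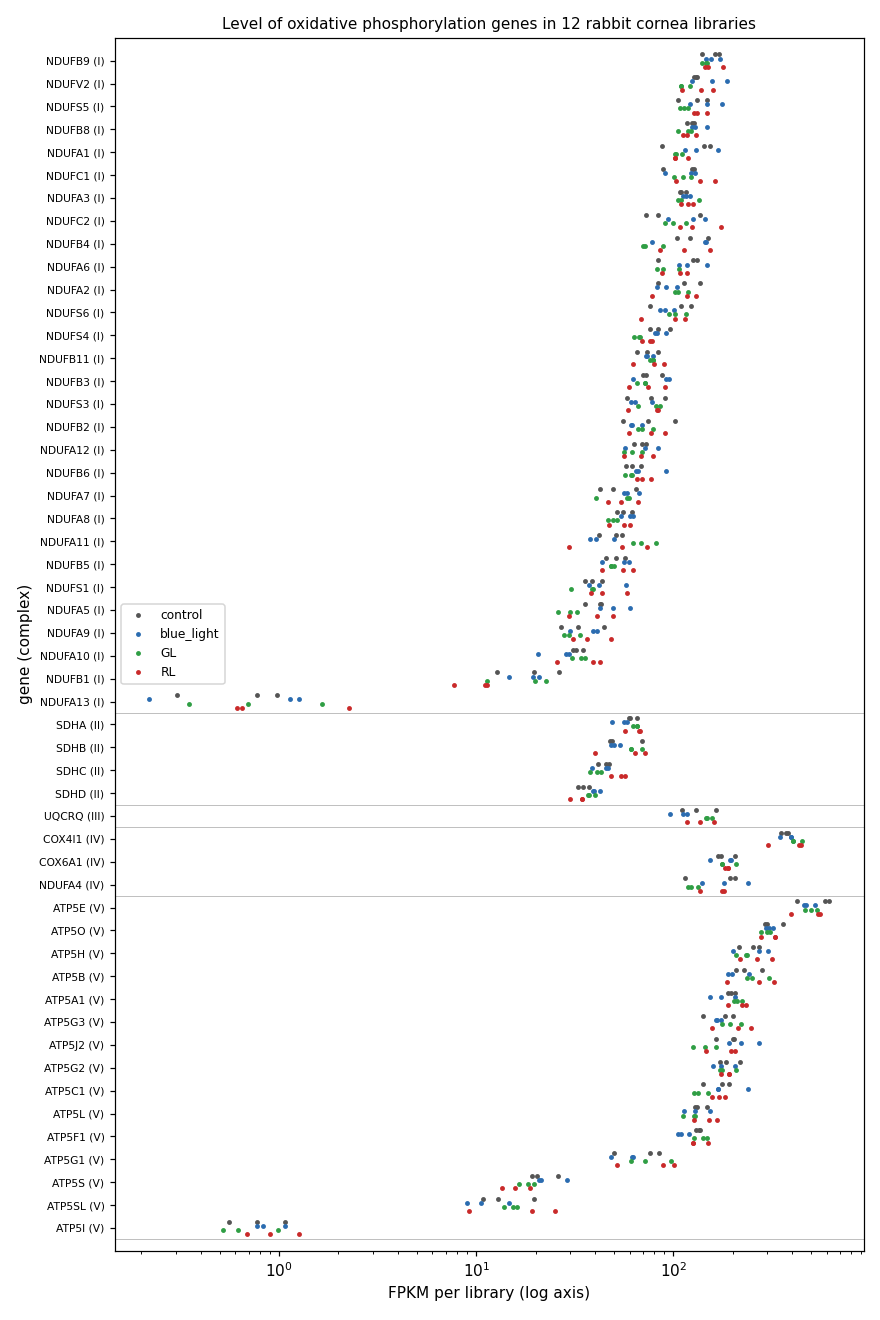
FPKM of the subunit genes (rows, by complex and then by mean level) in each of the 12 libraries (points, coloured by group), on a log axis. Within most genes the 4 colours overlap, and 2 genes, NDUFA13 and ATP5I, lie near 1 FPKM.

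Summed over its members, complex V made up 42.9% of the FPKM of all 53 genes and complex I 39.4%. Complex IV contributed 12.1%, complex II 3.3% and complex III 2.19%. These shares did not simply follow the number of members under a symbol. Complex V, with 15 members, had a larger share than complex I, with 30. Complex IV, with 3 members, had a larger share than complex II, with 4. The shares cover only entries under a symbol. With entries without a symbol added, as described further on, the control means were 3056 FPKM for complex IV, 2881 for V and 2446 for I. Of these enlarged sums the members held 24.9% in complex IV and 14.4% in complex III. The order of the complexes thus depended on which entries were counted. The sum over all 53 was 6112 ± 554 FPKM in control, 6092 ± 375 in blue_light, 6231 ± 518 in RL and 5865 ± 296 in GL (SD, n = 3 for each group throughout). The lowest library was GL 2 with 5544 FPKM and the highest was RL 3 with 6766 FPKM, a ratio of 1.22. Every group mean lay within the range of the control libraries, 5549 to 6657 FPKM.

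Taken singly, the highest library exceeded the lowest by a ratio of 1.3 in complex I, 1.22 in complex II, 1.72 in complex III, 1.32 in complex IV and 1.25 in complex V. Complex I, the NADH dehydrogenase, summed to 2406 ± 213 FPKM in control, 2501 ± 232 in blue_light, 2440 ± 165 in RL and 2237 ± 92.9 in GL. Complex II, the succinate dehydrogenase of the citric acid cycle, summed to 197 ± 17.6 FPKM in control, 189 ± 4.13 in blue_light, 209 ± 18.1 in RL and 207 ± 2.70 in GL. These 2 complexes overlapped with control in each light group. Complex III, which is UQCRQ alone, had 136 ± 27.6 FPKM in control, 109 ± 11.2 in blue_light, 138 ± 21.6 in RL and 151 ± 6.44 in GL. Complex IV, the cytochrome c oxidase, summed over its 3 members to 724 ± 28.4 FPKM in control, 749 ± 77.5 in blue_light, 747 ± 101 in RL and 731 ± 51.3 in GL. Complex V summed to 2649 ± 275 FPKM in control, 2545 ± 123 in blue_light, 2697 ± 250 in RL and 2540 ± 173 in GL. In each of the 5 complexes the difference between any light group and control was smaller than the larger of the 2 SDs. In bulk RNA of whole corneas, fewer cells of a type and less RNA per cell cannot be told apart.

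**Figure D2:**
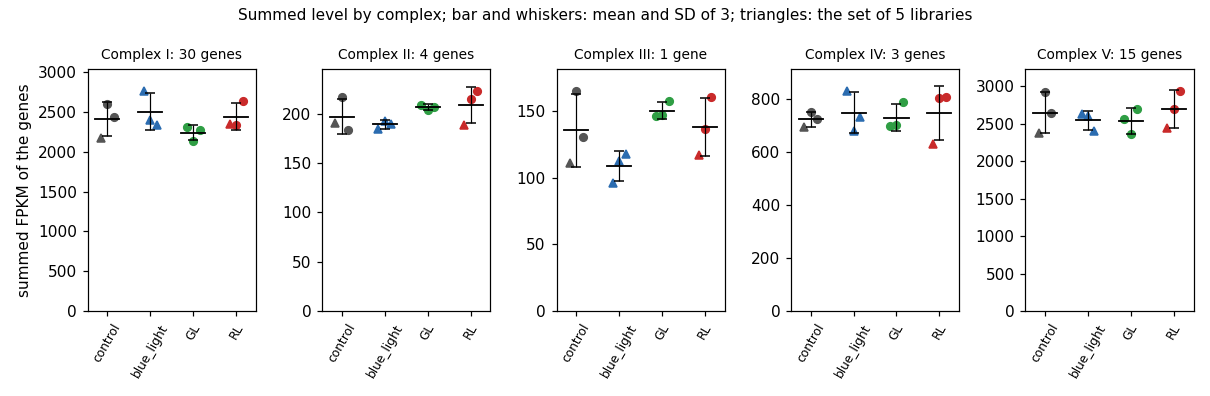
Summed FPKM of the members of each complex (vertical axis from 0) in the 4 groups; points are libraries, the bar is the mean and the whiskers are 1 SD of 3 libraries. Triangles are the 5 libraries with more genes at low counts; in complex III, which is UQCRQ alone, all triangles lie below all circles.

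No member differed between groups past the threshold. With edgeR's quasi-likelihood test and Benjamini-Hochberg adjustment over the 18171 genes tested, 0 of 53 members passed an adjusted p of 0.05 in any of the 6 comparisons, and DESeq2 and limma also called 0. All 53 passed the filter on low counts. The share of all genes called was 0.0165% in blue_light minus control, 0.055% in GL minus control and 0.011% in RL minus control. It was 0.0495% in blue_light minus GL, 0.011% in blue_light minus RL and 0.0715% in GL minus RL, so few genes of any kind were called. A test for any difference among the 4 groups called 0 members as well, where 0.0605% of all genes were called. An unadjusted p below 0.05 was found in it for NDUFA5 and ATP5J2 (7.79% of all genes), each with an edgeR adjusted p of 0.631.

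The data bounded most of these differences. In blue_light minus control the 95% interval of the log2 fold lay within 1 unit of 0, that is within a doubling or halving, for 50 of 53 members, against 48.4% of all genes tested. It did so for 49 members in GL minus control (44.3% of all genes) and for 48 in RL minus control (48.2% of all genes). The median 95% interval reached 0.409 log2 units to either side of the estimate for members and 0.706 for all genes. Smaller differences were not excluded: the interval lay within 0.5 log2 units of 0 for 19 members in blue_light minus control, 20 in GL minus control and 19 in RL minus control.

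**Figure D3:**
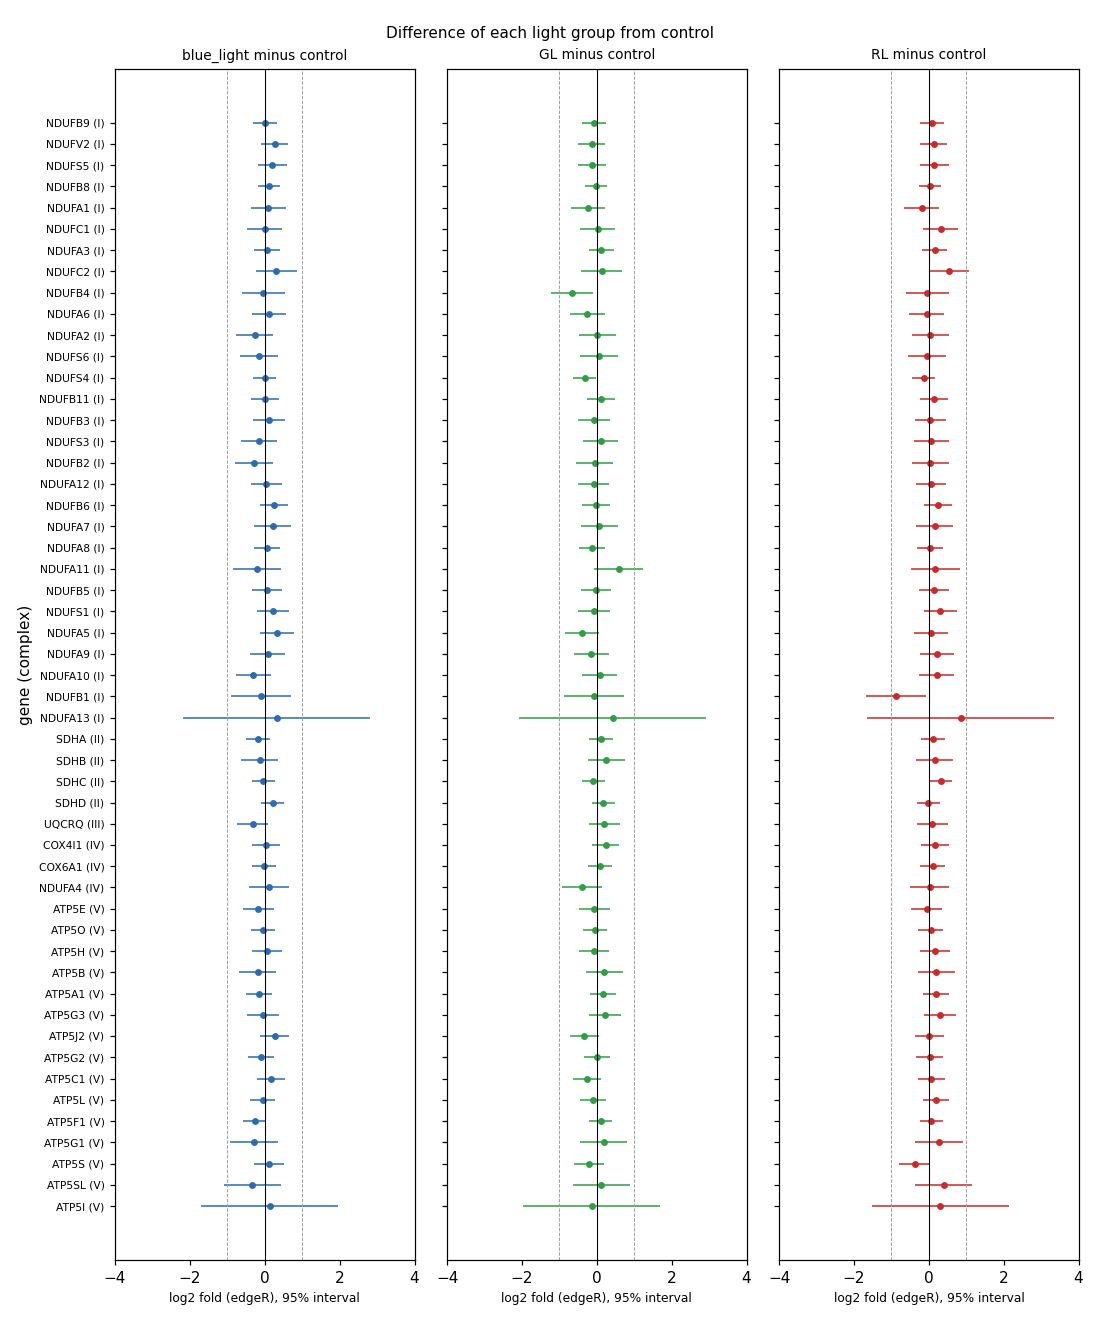
Log2 fold of the subunit genes (rows, by complex) in blue_light, GL and RL against control, with its 95% interval from edgeR; dashed lines mark 1 log2 unit. Most intervals cross 0 and lie between the dashed lines, and the wide ones belong to NDUFA13 and ATP5I, the 2 genes near 1 FPKM.

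Blue light against control gave a median log2 fold of 0.00 over the 53 members and 0.01 over all genes. Of the members, 28 had a positive fold (51.8% of all genes did). An unadjusted p below 0.05 was found for 0 members and for 3.26% of all genes, 1.75% higher and 1.51% lower. One member, SDHD, was higher in every blue_light library than in every control (4.74% of all genes), and 3 members, SDHA, NDUFA10 and ATP5F1, were lower in every one (4.3% of all genes). Folds of members ran from -0.33 to 0.32.

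GL against control gave a median log2 fold of -0.02 over members and over all genes. A positive fold was found for 24 members (48.2% of all genes), and 2 members, NDUFB4 and NDUFS4, had an unadjusted p below 0.05, both with lower values in GL. Over all genes 8.1% had one, 3.58% higher and 4.52% lower. COX4I1 and NDUFA11 were higher in every GL library than in every control (7.67% of all genes). NDUFS4, NDUFB4, ATP5J2, NDUFA5, ATP5L and NDUFV2 were lower in every one (10.8% of all genes). Of the 13 lens markers, 0 had a positive fold in GL (median -1.73), 4 were lower at an unadjusted p below 0.05 and 0 were called by edgeR. The 15 retina markers all had positive folds (median 2.18), with GL 3 the highest and the groups overlapping, and 0 were called. Their part in the values of GL was not tested beyond leaving out the 3 libraries richest in retina transcripts.

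RL against control gave a median log2 fold of 0.10 over members and 0.00 over all genes, and 44 of 53 members had a positive fold (50.5% of all genes). The positive folds were spread over the complexes, with 24 of 30 in complex I, 13 of 15 in complex V and 3 of 4 in complex II. They were small beside the spread: SDHC alone had a positive fold at an unadjusted p below 0.05 (2.31% of all genes) and NDUFB1 alone a negative one (2.43% of all genes). SDHC was also higher in every RL library than in every control (2.65% of all genes), and ATP5S and NDUFB1 were lower in every one (6.16% of all genes). The lens markers had 0 of 13 positive folds in RL as well (median -1.48), with 2 lower at an unadjusted p below 0.05 and 0 called by edgeR. Of the 15 retina markers 1 had a positive fold (median -1.53), with 1 lower at that p. Positive folds were found for 9 of 11 epithelium markers (median 0.339), with 2 higher at that p. They were also found for 9 of 10 keratocyte markers (median 0.302). Of all these markers 0 were called by edgeR. The part of these tissues in the values of RL was not tested beyond leaving out the 3 libraries richest in retina transcripts. The 3 comparisons share the control libraries.

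Between light groups, blue_light minus GL had the most members with small p-values. There 6 members had positive and 3 negative folds at an unadjusted p below 0.05 (8.3% and 6.57% of all genes), 12 were higher in every blue_light library (16.5% of all genes) and 8 lower in every one (10.5% of all genes). The median fold was 0.03 over members and 0.05 over all genes. In blue_light minus RL 18 of 53 members had a positive fold (51.9% of all genes). The median was -0.12 over members and 0.02 over all genes. With the library set as a covariate the median of members was 0.0872, so its sign turned. At an unadjusted p below 0.05, ATP5S had a positive fold and 4 members, SDHC, NDUFA10, ATP5F1 and UQCRQ, a negative one (2.89% and 2.25% of all genes, 5.14% together). Every blue_light library was above every RL library for 4 members (7.02% of all genes) and below for 2 (2.34% of all genes). The interval lay within 1 log2 unit of 0 for 47 members (46.2% of all genes).

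In GL minus RL 11 of 53 members had a positive fold (48.3% of all genes), with a median of -0.10 against -0.02 over all genes. At an unadjusted p below 0.05, NDUFB1 had a positive fold and SDHC and NDUFB4 a negative one (3.83% and 4.77% of all genes, 8.6% together). SDHD was higher in every GL library than in every RL library (7.9% of all genes), and 6 members, among them SDHC and NDUFS4, were lower in every one (5.53% of all genes).

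The core subunits of complex I are those that hold its flavin, iron-sulfur clusters and quinone site. NDUFV2, an iron-sulfur subunit of the NADH-binding tip, had levels of 133, 127 and 130 FPKM in control, 187, 157 and 125 in blue_light, 159, 111 and 139 in RL and 121, 110 and 110 in GL. The 3 GL libraries lay below the 3 controls and blue_light 1 was the highest of all 12. Its log2 fold was 0.26 ± 0.17 (SE) in blue_light minus control and -0.14 ± 0.17 in GL minus control, with edgeR adjusted p-values of 1 and 0.847. NDUFS1, the largest iron-sulfur subunit, had 43.7, 35.6 and 38.9 FPKM in control, 42.0, 57.7 and 37.5 in blue_light, 58.2, 38.3 and 43.4 in RL and 39.2, 38.8 and 30.3 in GL. Its groups overlapped, with high values in blue_light 2 and RL 1. NDUFS3, a core subunit of the matrix arm, had a mean of 74.0 FPKM and a coefficient of variation of 15.7% over the 12 libraries.

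The accessory subunits surround the core of complex I and are needed to assemble and hold it. NDUFB4 (chromosome 14, 98262822 to 98268950) had 105, 151 and 122 FPKM in control, 147, 146 and 78.0 in blue_light, 155, 85.2 and 113 in RL and 88.2, 72.2 and 69.9 in GL. All 3 GL libraries lay below all controls, while blue_light and RL were split within themselves. Its fold in GL minus control was -0.67 ± 0.26 (unadjusted p = 0.0257, adjusted p = 0.601 in edgeR), the smallest p of any member against control in that group. Without the 3 libraries richest in retina transcripts, blue_light 1, GL 3 and control 2, the fold was -0.45, and with log2 library size as a covariate -0.37.

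NDUFS4 (chromosome 11, 69585379 to 69698365), an accessory subunit next to the NADH-binding tip, had 76.5, 84.1 and 96.3 FPKM in control, 92.4, 83.0 and 81.1 in blue_light, 77.7, 69.2 and 76.4 in RL and 66.8, 63.3 and 67.9 in GL. The GL libraries were tight and lay below every library of the other 3 groups. The log2 fold in GL minus control was -0.32 ± 0.14 (unadjusted p = 0.0424, adjusted p = 0.61 in edgeR). In RL minus control it was -0.14 ± 0.14, with RL 1 alone inside the range of control.

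NDUFA5 (chromosome 7, 21006377 to 21026973), which sits on the matrix arm, had 42.5, 35.6 and 43.1 FPKM in control, 60, 49.6 and 42.4 in blue_light, 49.5, 29.5 and 41.1 in RL and 32.5, 30.0 and 26.1 in GL. Every GL library lay below every control and every blue_light library, and RL spanned the gap. The fold in blue_light minus GL was 0.72 ± 0.21, with the smallest unadjusted p of any member in any comparison (0.00492) and an edgeR adjusted p of 0.254. With the library set as a covariate it was 0.46.

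NDUFA11, a membrane-arm subunit, had 41.9, 54.9 and 51.0 FPKM in control, 49.8, 38.0 and 40.4 in blue_light, 29.5, 55.0 and 73.7 in RL and 68.9, 62.8 and 82.0 in GL. GL was above every control and every blue_light library, and RL ran from the lowest of all 12 libraries to the second highest. The log2 fold was 0.58 ± 0.30 in GL minus control (adjusted p = 0.613) and -0.80 ± 0.30 in blue_light minus GL (adjusted p = 0.277, both edgeR). With the library set as a covariate the latter was -0.04.

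NDUFA10 and NDUFC2 spread in other ways. NDUFA10, a matrix-side subunit that resembles a nucleoside kinase, had 30.9, 35.0 and 32.2 FPKM in control, 20.7, 28.6 and 29.7 in blue_light, 25.8, 39.3 and 42.5 in RL and 35.6, 33.9 and 30.7 in GL. Blue_light lay below control in each library, and its log2 fold of -0.31 ± 0.22 had an edgeR adjusted p of 1. It was -0.15 without blue_light 1, -0.08 without the 3 libraries richest in retina transcripts and -0.03 with the library set as a covariate. NDUFC2, of the membrane arm, had 137, 84.0 and 72.4 FPKM in control, 145, 126 and 93.6 in blue_light, 174, 108 and 124 in RL and 100, 90.8 and 117 in GL. Here control 1 stood apart from the other 2 controls, and RL 1 was the highest of the 12. The fold in RL minus control was 0.53 ± 0.25 (unadjusted p = 0.0542 in edgeR), and among the 7 libraries of the second set, which leaves out control 1 and RL 1, it was 0.85.

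NDUFB1, one of the smallest membrane-arm subunits, had 12.7, 26.2 and 19.6 FPKM in control, 20.9, 19.3 and 14.7 in blue_light, 11.1, 11.4 and 7.72 in RL and 19.8, 22.6 and 11.3 in GL. All RL libraries lay below all controls and all blue_light libraries, and GL 3 lay within the range of RL. The log2 fold in RL minus control was -0.89 ± 0.37 (unadjusted p = 0.0327, adjusted p = 1 in edgeR). A RefSeq gene table lists this entry as LOC103348994 rather than NDUFB1. A second entry for the same protein, described further on, held more of the level, 26.7 against 16.4 FPKM. The sum of both was less uneven, with a fold of -0.52.

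The remaining 18 accessory subunits of complex I, NDUFA13 aside, had no unadjusted edgeR p below 0.05 in any of the 6 comparisons. NDUFB9 was the most abundant of complex I at 155 FPKM, with group means of 158 ± 16.2 FPKM in control, 159 ± 13.8 in blue_light, 158 ± 19.1 in RL and 145 ± 4.60 in GL. NDUFA3 was the steadiest of the 51 members at 10 FPKM or more, with a coefficient of variation of 7.51% around 116 FPKM, and NDUFB1 the least steady at 34.6%. The median over the 51 members was 16.0%, against 18.4% for the 5091 genes whose means lay in the same range.

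Complex II has 4 subunits, all nuclear-encoded and all present. SDHA, the flavoprotein that oxidises succinate, had 60.5, 65.4 and 59.9 FPKM in control, 49.0, 58.2 and 56.3 in blue_light, 56.9, 67.6 and 67.0 in RL and 65.2, 65.4 and 62.7 in GL. The blue_light libraries lay below every control and every GL library, by a log2 fold of -0.19 ± 0.15 against control (adjusted p = 1 in edgeR). SDHB, its iron-sulfur partner, had 47.5, 69.7 and 49.2 FPKM in control, 50.1, 53.5 and 48.5 in blue_light, 40.2, 64.2 and 72.2 in RL and 61.4, 61.0 and 69.5 in GL. Control and RL each spanned most of its range, and GL lay above blue_light.

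The membrane anchors SDHC and SDHD bind ubiquinone. SDHC (chromosome 13, 31640431 to 31680399) had 45.5, 47.1 and 41.6 FPKM in control, 46.6, 38.9 and 45.7 in blue_light, 57.1, 48.1 and 54.2 in RL and 42.8, 40.9 and 37.9 in GL. The RL libraries were the 3 highest of the 12. The log2 fold was 0.31 ± 0.14 in RL minus control (unadjusted p = 0.0472, adjusted p = 1) and -0.40 ± 0.14 in GL minus RL (unadjusted p = 0.0140, adjusted p = 0.532, both edgeR). SDHD had 37.2, 34.7 and 32.8 FPKM in control, 39.1, 42.3 and 39.6 in blue_light, 34.5, 34.6 and 30.0 in RL and 40.1, 36.8 and 37.2 in GL. Blue_light was above every control and every RL library, and the log2 fold against control was 0.21 ± 0.14 (adjusted p = 1 in edgeR). With the other entries of the same subunit added, SDHD summed to 76.8 ± 1.33 FPKM in control and 74.5 ± 10.5 in blue_light, the groups overlapped and the fold was 0.04.

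Complex III was represented by UQCRQ alone (chromosome 3, 15890334 to 15891335), a small subunit on the membrane part. It had 111, 166 and 131 FPKM in control, 96.4, 113 and 118 in blue_light, 117, 137 and 161 in RL and 146, 148 and 158 in GL. The low values belong to blue_light, control 1 and RL 1, which are the 5 libraries of the first set. The log2 fold was -0.32 ± 0.19 in blue_light minus control (adjusted p = 1) and -0.52 ± 0.19 in blue_light minus GL (adjusted p = 0.272, both edgeR). With the library set as a covariate these were -0.02 and -0.09.

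In complex IV, COX4I1 had 374, 381 and 353 FPKM in control, 397, 347 and 397 in blue_light, 303, 433 and 447 in RL and 404, 403 and 449 in GL. GL was above every control, and RL held both the lowest and the second highest library. Its log2 fold in GL minus control was 0.23 ± 0.17 (adjusted p = 0.721 in edgeR), and -0.01 with log2 library size as a covariate, where the sign turned. COX6A1, the non-muscle isoform of subunit 6A, had a mean of 185 FPKM and a coefficient of variation of 8.42%, with group means of 183 ± 20.3 FPKM in control, 181 ± 23.6 in blue_light, 188 ± 3.6 in RL and 187 ± 17.6 in GL. NDUFA4 had 114, 195 and 205 FPKM in control, 240, 140 and 181 in blue_light, 137, 182 and 177 in RL and 120, 123 and 134 in GL. Control 1 lay below GL and the other 2 controls well above it, so the fold of -0.40 ± 0.24 in GL minus control was within the spread (adjusted p = 0.643 in edgeR).

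In the catalytic head of complex V, ATP5A1 and ATP5B encode the alpha and beta subunits that make ATP. ATP5B had 208, 282 and 228 FPKM in control, 189, 199 and 243 in blue_light, 187, 274 and 326 in RL and 252, 238 and 307 in GL. ATP5A1 had 197, 206 and 189 FPKM in control, 154, 205 and 175 in blue_light, 189, 223 and 233 in RL and 211, 203 and 223 in GL. For both, blue_light and control overlapped and RL 3 was the highest library. ATP5C1, the gamma subunit that turns inside the head, had 141, 177 and 191 FPKM in control, 240, 168 and 168 in blue_light, 182, 157 and 172 in RL and 150, 134 and 128 in GL. Blue_light and RL lay above GL in every library, with a log2 fold of 0.43 ± 0.17 in blue_light minus GL (adjusted p = 0.291 in edgeR). ATP5E had 423, 621 and 588 FPKM in control and 394 to 557 FPKM in the 9 light libraries.

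In the stalk and membrane part of the synthase, ATP5F1 is the b subunit of the peripheral stalk. It had 131, 137 and 135 FPKM in control, 106, 120 and 109 in blue_light, 126, 126 and 149 in RL and 142, 128 and 149 in GL. Blue_light lay below every library of the other 3 groups. With the ATP5F1 entries without a symbol added, it lay below every control but no longer below every RL and GL library. The log2 fold was -0.27 ± 0.14 against control (unadjusted p = 0.0819, adjusted p = 1 in edgeR), the smallest p of any member in that comparison. ATP5J2, the f subunit, had 165, 203 and 201 FPKM in control, 271, 222 and 191 in blue_light, 207, 147 and 195 in RL and 164, 145 and 125 in GL. GL lay below every control and every blue_light library, narrowly for GL 1 beside control 1. Its log2 fold was -0.34 ± 0.18 in GL minus control (adjusted p = 0.617) and 0.60 ± 0.18 in blue_light minus GL (unadjusted p = 0.00549, adjusted p = 0.254, both edgeR). ATP5O, in the peripheral stalk, kept to 277 to 360 FPKM over the 12 libraries, and ATP5H to 202 to 316 FPKM.

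ATP5G1, ATP5G2 and ATP5G3 encode the same mature c subunit, which forms the rotating ring, with different import sequences. ATP5G2 gave 44.2% ± 4.71 of their summed FPKM in control, 44.1% ± 2.91 in blue_light, 39.9% ± 5.03 in RL and 40.4% ± 1.21 in GL. ATP5G3 gave 39.9% ± 2.35, 41.7% ± 1.84, 43.4% ± 3.12 and 43.0% ± 0.945 in the same order. ATP5G1 gave the smallest share, 15.9% ± 2.42, 14.2% ± 1.81, 16.8% ± 3.25 and 16.6% ± 1.97. ATP5G2 had the larger mean share in control and blue_light and ATP5G3 in RL and GL. In all 3 GL libraries ATP5G3 lay above ATP5G2, and in each of the other groups the order differed between libraries. ATP5G2 had the larger share in blue_light 1, blue_light 2, control 1, control 2 and RL 1. All of these but control 2 belong to the first set of 5 libraries. Blue_light 3 belongs to that set too, but there ATP5G3 had the larger share (43.0% against 40.8%). The order thus followed the library sets only in part. These shares are given without a test.

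Of the 2 members named like subunits, ATP5S, a regulatory factor of the synthase, had 20.3, 19.1 and 26.1 FPKM in control, 28.9, 20.9 and 21.2 in blue_light, 18.9, 13.6 and 15.7 in RL and 16.4, 18.2 and 19.7 in GL. The RL libraries lay below every control and every blue_light library. The log2 fold was -0.38 ± 0.19 in RL minus control (adjusted p = 1) and 0.49 ± 0.19 in blue_light minus RL (unadjusted p = 0.0223, adjusted p = 0.927, both edgeR). ATP5SL, which a RefSeq gene table lists as DMAC2, ran from 8.96 to 25.3 FPKM, with control at 10.8, 12.8 and 19.6 FPKM.

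The split between the 5 and the 7 libraries also ran through the subunit genes. With the groups in the fit, 20 of 53 members had an unadjusted p below 0.05 between the sets (19.1% of all genes) and 0 had an adjusted p below 0.05 (0.0055% of all genes). UQCRQ, NDUFA11 and ATP5G3 were lower in every library of the 5 (1.54% of all genes), and no member was higher in every one. ATP5G3 ran from 141 to 175 FPKM in the 5 and from 178 to 247 in the 7. NDUFC2 went the other way, with means of 135 FPKM in the 5 and 99.3 FPKM in the 7, and the sets overlapped. Whether depth has a part in this was not tested: the totals were 40.9 to 58.8 M counts in the 5 libraries and 46.8 to 64.7 M in the 7. Single libraries mattered too: blue_light 1 was the highest of the 12 for 13 of the 51 members at 10 FPKM or more, RL 3 for 11 and control 2 for 8.

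**Figure D4:**
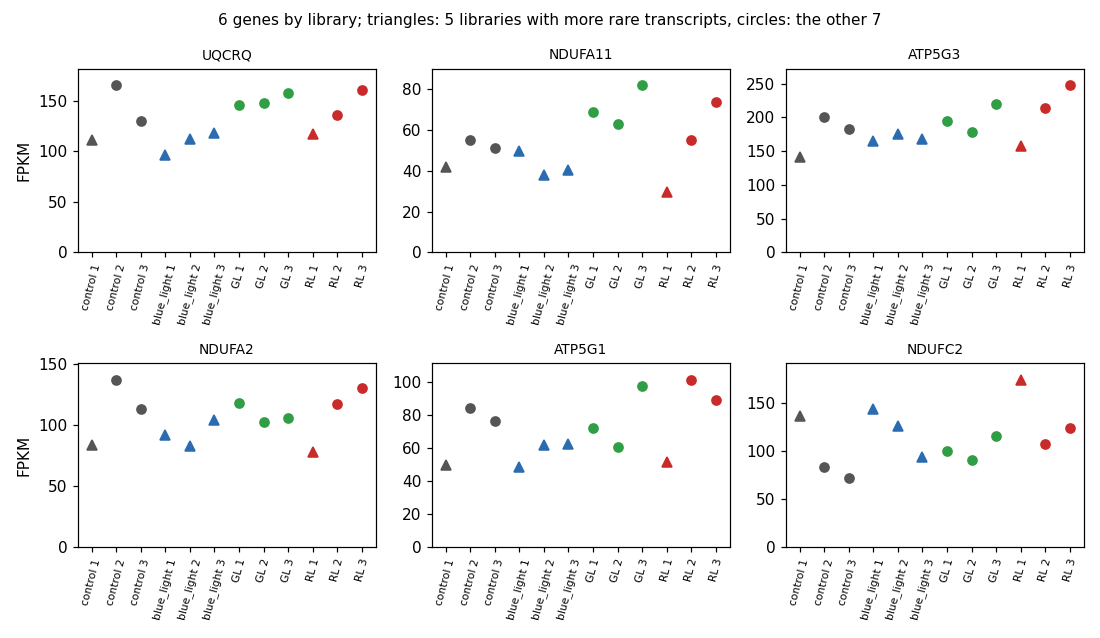
FPKM of 6 genes (vertical axis from 0) in each of the 12 libraries, coloured by group; triangles are the 5 libraries with more genes at low counts and circles the other 7. For UQCRQ, NDUFA11 and ATP5G3 every triangle lies below every circle, and for NDUFC2 the triangles are on average higher.

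A symbol does not always mark the entry that carries a subunit's reads in this table. Besides the 53 members, 112 entries without a symbol carried the orthology label of a subunit, and 42 of these had a mean of 1 FPKM or more. They were looked up after the values had been seen and are given as a description. Of the summed FPKM over the labels looked up, the members held 98.2% in complex I, 82.6% in complex II and 91.0% in complex V. In complex III they held 14.4% and in complex IV 24.9%. In complexes I, II and V only labels of members were looked up (30, 4 and 11). NDUFV1, NDUFS7 and NDUFS8 of complex I had no entry under their symbols, so these shares leave them out. NDUFAB1, at 45.0 FPKM, and USMG5, at 212 FPKM, are left out as well. Core subunits of complex III such as the Rieske protein and cytochrome c1, and most small subunits of complex IV, were outside the members. The only entry labelled cytochrome c1 averaged 0.0216 FPKM, and the only one labelled UQCR11 had 0 FPKM. The enlarged sum of complex III therefore holds the Rieske protein, at 104 FPKM, but hardly any cytochrome c1. With these entries added, complex III summed to 912 ± 128 FPKM in control, 926 ± 87.4 in blue_light, 949 ± 96.2 in RL and 912 ± 49.1 in GL. Complex IV then had group means of 3056 FPKM in control, 3085 in blue_light, 2945 in RL and 2744 in GL, within a range of 2576 to 3480 FPKM over the libraries. Of the 55 such entries tested, 0 were called by edgeR in any comparison, and 3 had an unadjusted p below 0.05 in blue_light (3.26% of all genes), 5 in GL (8.1% of all genes) and 2 in RL (4.74% of all genes) against control.

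For 4 members the second entry changed the picture of the level. ATP5I, the e subunit of the synthase, was at 0.836 FPKM under its symbol and at 220 FPKM under LOC108178113. NDUFB1 was at 16.4 FPKM under its symbol and at 26.7 under LOC108178624. SDHD had 51.2% of its reads per length in other entries, mostly in LOC100342797 with 24.1 FPKM. NDUFB4 had a second entry, LOC100351933, at 28.9, 0.852 and 0.300 FPKM in control, 43.3, 18.8 and 32.5 in blue_light, 3.52, 20.1 and 0.178 in RL and 16.4, 13.0 and 10.6 in GL. That entry was near 0 in 2 controls and in RL 3 and high in blue_light. How the authors' counting divided reads between near-identical entries is not given in the sources used here, so these levels are uncertain. The NDUFA13 entry (an unplaced scaffold, 143470 to 144004) carries the description of another protein, the YjeF N-terminal domain-containing protein 3, so its 0.907 FPKM is no measure of that subunit.

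**Figure D5:**
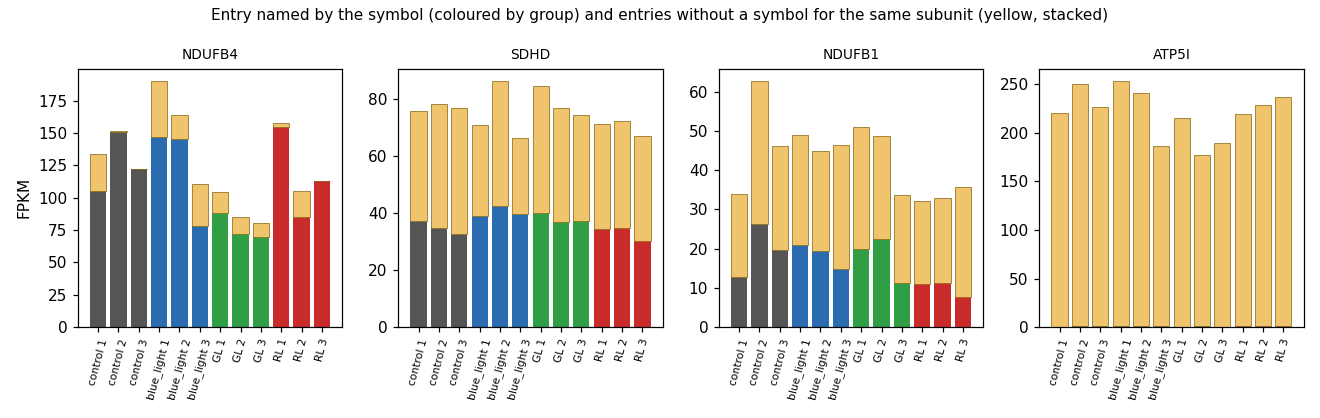
FPKM by library (vertical axis from 0) of the entry that bears the symbol (coloured by group) and, stacked in yellow, of the entries without a symbol that carry the same orthology label, for NDUFB4, SDHD, NDUFB1 and ATP5I. The yellow part is uneven for NDUFB4 and is nearly the whole bar for ATP5I.

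Among the entries without a symbol, 3 more are described, chosen after their values were seen. LOC100352363, labelled COX6C, a small subunit of complex IV, had 74.9, 86.0 and 78.3 FPKM in control, 13.9, 17.3 and 4.95 in blue_light, 13.5, 85.8 and 6.23 in RL and 147, 77.7 and 149 in GL. Blue_light, RL 1 and RL 3 were low and all others at least 74.9 FPKM, with a log2 fold of -2.74 in blue_light minus control (unadjusted p = 0.00404, adjusted p = 1 in edgeR). The other 2 COX6C entries held more of the level. LOC100340645 had 206 FPKM in control, 236 in blue_light, 218 in RL and 160 in GL on average, and LOC108176887 had 233, 299, 231 and 152 in the same order. Summed over its 3 entries, COX6C had 519 ± 115 FPKM in control, 547 ± 116 in blue_light, 485 ± 48.2 in RL and 437 ± 28 in GL, and each light group overlapped with control. LOC100354074, labelled ATP5F1, had 7.32, 8.52 and 3.17 FPKM in control, 12.9, 15.7 and 9.01 in blue_light, 2.46, 2.16 and 1.82 in RL and 5.54, 2.34 and 2.75 in GL. Blue_light lay above all others, by a log2 fold of 2.47 over RL (unadjusted p = 9.07e-05, adjusted p = 0.194 in edgeR). LOC100341219, described as the muscle isoform of subunit 6A, had 4.09, 5.54 and 11.6 FPKM in control, 4.01, 9.43 and 5.31 in blue_light, 10.5, 9.09 and 10.1 in RL and 24.7, 10.1 and 36.4 in GL. GL 1 and GL 3 were high, and the adjusted p in GL minus control was 0.479. Of 10 matched skeletal muscle markers 4 (CKM, MYH1, MYH4 and TTN) were below 0.1 FPKM on average. The others averaged 1.95 (CASQ1), 1.73 (NEB), 0.395 (MYLPF), 0.336 (ACTA1), 0.304 (TNNT1) and 0.167 FPKM (MB). The summed level of the 10 was 4.45 to 7.15 FPKM in control and 2.59, 8.08 and 5.18 in GL 1, GL 2 and GL 3. Whether muscle transcripts had a part in the GL values was not tested.

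Genes of other lists, most of them on mitochondrial function and 1 on hypoxia response, were likewise without calls. The 10 lists were assembly factors of each complex, subunits outside the pattern, regulators of mitochondrial biogenesis, the citric acid cycle, carriers and hypoxia response. In them edgeR called 0 genes in any light group against control. At most 2 genes of a list had an unadjusted p below 0.05 in 1 direction. Over all genes, 1.75% in blue_light, 2.31% in RL and 3.58% in GL were higher at that p. Lower were 1.51%, 2.43% and 4.52% in the same order. Positive folds were found for 51.8%, 50.5% and 48.2% of all genes. All 17 genes of the citric acid cycle were measured, with positive folds for 8 in blue_light, 13 in RL and 11 in GL. PDHB, a subunit of pyruvate dehydrogenase, had 62.3 ± 8.38 FPKM in blue_light and 47.9 ± 6.15 in control (unadjusted p = 0.0261, adjusted p = 1 in edgeR). Of 16 tested regulators of mitochondrial biogenesis, 4 had positive folds in blue_light, 8 in RL and 5 in GL. NRF1, a transcription factor for many respiratory genes, had 4.76 ± 0.556 FPKM in control, 3.54 ± 0.470 in blue_light and 3.35 ± 0.271 in RL, each with an adjusted p of 1. Of 16 tested assembly factors of complex I, 10 had positive folds in blue_light, 13 in RL and 10 in GL. CMC2, an assembly factor of complex IV, had 4.0 ± 0.558 FPKM in blue_light and 1.86 ± 0.392 in control (unadjusted p = 0.00108, adjusted p = 1 in edgeR). USMG5 and ATPIF1, a small subunit and the inhibitor of the synthase, had 281 ± 82.9 and 185 ± 35.8 FPKM in blue_light and 204 ± 31.0 and 141 ± 5.32 in control, with adjusted p-values of 1. Of 17 carriers and outer membrane genes 7 had positive folds in blue_light, 14 in RL and 11 in GL. Of 15 hypoxia genes 10 had positive folds in blue_light, 12 in RL and 10 in GL.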

How the data were processed

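The table the authors deposited holds, per the file headers, estimated counts beside FPKM for each gene in each library. The aligner and the counting tool are not stated. The only build named, in the submitters' processing notes, is GRCm38/mm10, a mouse build, while the table's gene names and descriptions are rabbit. Counts were whole numbers that pile up at steps of about 3.73, so they are not raw reads, and a version divided by the step was run. FPKM as deposited was used for levels; a count of 0 was set to 0 FPKM. Intervals cover the spread between libraries only.

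Counts were tested with edgeR 4.0.16 in R 4.3.3 (glmQLFit, glmQLFTest), TMM scaling (0.944 to 1.06) and filterByExpr, 12 libraries in 1 fit with 4 group means, Benjamini-Hochberg adjustment over 18171 genes, threshold 0.05. SEs are Wald errors of the fit. Limma 3.58.1 on log2(FPKM + 1) and log2(FPKM + 0.1), with pseudocounts of 1 and 0.1, and DESeq2 1.42.0 were alternatives. The method was also run on simulated counts, for GL minus control only. These held no library sets, uneven tissues or count steps, so that run does not bear on the effect of those. Library sets, depth, retina transcripts, gene copies, scaling, filters and each library left out were varied as well.

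The members and lists were chosen with earlier results of these data known. Named members were, per comparison, the 3 of smallest unadjusted p in each direction, the most and least abundant of each complex, core subunits and isoforms; from the other lists up to 2 genes of smallest p. Identifiers were matched to a RefSeq gene table, for names only: 50 of 53 had an entry, 34 of them under an identical symbol. Chromosome numbers follow the sequence identifiers of the table, and 18 members lie on unplaced scaffolds. No sequences are shown. One member is not reported here singly; counts and sums include it. Same-numbered libraries deviated together (r over 0.1) in 2 of 18 pairs, so the numbers were not taken to pair libraries.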

Additional observations from a re-analysis of the deposited data

How the results depend on the processing

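The count of members called was 0 under each of the 148 alternatives run over the 7 tests. The smallest adjusted p of a member among them was 0.0600, for NDUFA5 in blue_light minus GL with DESeq2. With the replicate number as a block 0 members were called in each test, and the smallest adjusted p was 0.152, in blue_light minus GL. Leaving out 1 library at a time also called 0 members. The median log2 fold of members moved beyond its spread with the library set as a covariate. It was then 0.165 in blue_light minus control and 0.258 in blue_light minus GL. In blue_light minus RL it was 0.0872, where its sign turned from -0.116. With log2 library size as a covariate it was -0.0989 in GL minus control and 0.12 in blue_light minus GL. The sign turned for 1 named member, COX4I1 in GL minus control, to -0.0088 with log2 library size; the other 737 values of named members kept their direction. The cause was not tested. Over all genes the number called in blue_light minus GL ran from 0 with the set as a covariate to 382 with DESeq2. The summed copies and the fit within 7 libraries were chosen after seeing the data.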
